A study of Mus musculus with 10 samples.

Results

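The genes described here are the unfolded protein response and the chaperones of the endoplasmic reticulum (ER) in cultured fetal mouse testes. Their 33 members were listed by name and taken by symbol from a table of 24470 gene entries. They hold 4 stress sensors, the transcription factor gene Xbp1, 2 regulatory subunits of a phosphatase of the translation factor eIF2alpha, 17 chaperones and folding enzymes, and 9 genes of ER-associated degradation. All 33 were found, and all 33 passed the filter on low counts.

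RNA was sequenced from 10 testes of 5 C57BL/6 mouse embryos at E12.5. From each embryo, 1 gonad was cultured for 48 h with 75 µM of the glycogen phosphorylase inhibitor CP 316819 (GPI) and the other with its solvent DMSO (vehicle), so each group has 5 testes paired by embryo. The study asked what blocked glycogen breakdown does to the young testis. Libraries held 10203679 to 15590223 counted read pairs in the vehicle group and 11025409 to 15635322 in the GPI group. The design sets limits on what the values stand for. The inhibitor bathed all cell types of the organ, the gonad was cut away from the mesonephros by hand after culture, and development ran outside the embryo. Each value is therefore an average over the RNA of a whole cultured gonad.

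The ER folds secreted and membrane proteins, and the unfolded protein response adjusts its capacity when unfolded proteins build up there. IRE1 (encoded by Ern1) splices the Xbp1 mRNA, PERK (Eif2ak3) slows translation while favouring that of Atf4, and ATF6 moves to the Golgi, where it is cut to release a transcription factor. Among their targets are ER chaperones and the machinery that retrotranslocates misfolded proteins to the proteasome. Fetal Sertoli cells secrete hormones such as AMH and help lay down the matrix around the testis cords, and fetal Leydig cells make steroids partly in smooth ER.

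A pair of libraries stood apart from the others of their group. The vehicle testis of embryo 2 was the highest or the lowest of its group in 54.6% of tested genes and the GPI testis of embryo 1 in 51.5%, against 30.3 to 41.3% in the other 8. The GPI testis of embryo 1 was the highest of its group in 14 of the 33 genes, beside 24.7% of tested genes. Where the call of one of the 33 genes depends on either embryo, its value without that embryo is given below.

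GPI testes held more mRNA of many ER chaperones and of degradation genes. None of the 4 sensor genes passed the test, though 3 of them had a log2 fold change above 0. Whether sensors differ from the other members was not tested. In edgeR's quasi-likelihood test at a false discovery rate (FDR) of 0.05, 15 of the 33 genes were higher with GPI, a share above the 11.1% of the 13941 tested genes called higher. None of the 33 was lower, whereas 11.9% of tested genes were called lower and 22.9% were called in either direction. At an unadjusted p under 0.05, 20 of the 33 were higher and 0 lower, beside 17% of tested genes higher and 17% lower, and DESeq2 and limma-voom each called 15 higher and 0 lower. Abundant genes were called more often, so the comparison was also made among them. Of 4266 genes with a mean of at least 500 normalized counts, 15.8% were called higher, beside 10 of 19 members at that level. The lowest GPI testis lay above the highest vehicle testis in 13 of the 33 genes, beside 7.07% of tested genes.

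The median log2 fold change of the 33 genes was 0.26, with a range from -0.20 to 1.13, beside a median of 0.02 over all tested genes. Their median log2 ratio in embryos 1 to 5 was 0.33, 0.23, 0.26, 0.34 and 0.22, with 30, 23, 26, 27 and 25 of the 33 genes above 0. Of all 33 genes, 15 were higher in each of the 5 embryos, a count that was not made over all tested genes. Of the 15 called genes, 14 were, the exception being Dnajb9 in embryo 2. The test is paired by these embryos, so agreement among called genes is partly built into the calls. Together the 33 genes took 0.579, 0.517, 0.549, 0.574 and 0.571% of counts in the vehicle testes of embryos 1 to 5 and 0.713, 0.624, 0.61, 0.688 and 0.626% in the GPI testes. The groups did not overlap in this share. Without embryo 1, 14 genes were higher and 1, P4hb, was lower (-0.33). Without embryo 2, 16 were higher, and without embryo 3 the count was 11, with Derl1, Dnajb9, Dnajc3 and Pdia4 losing their calls.

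**Figure D1:**
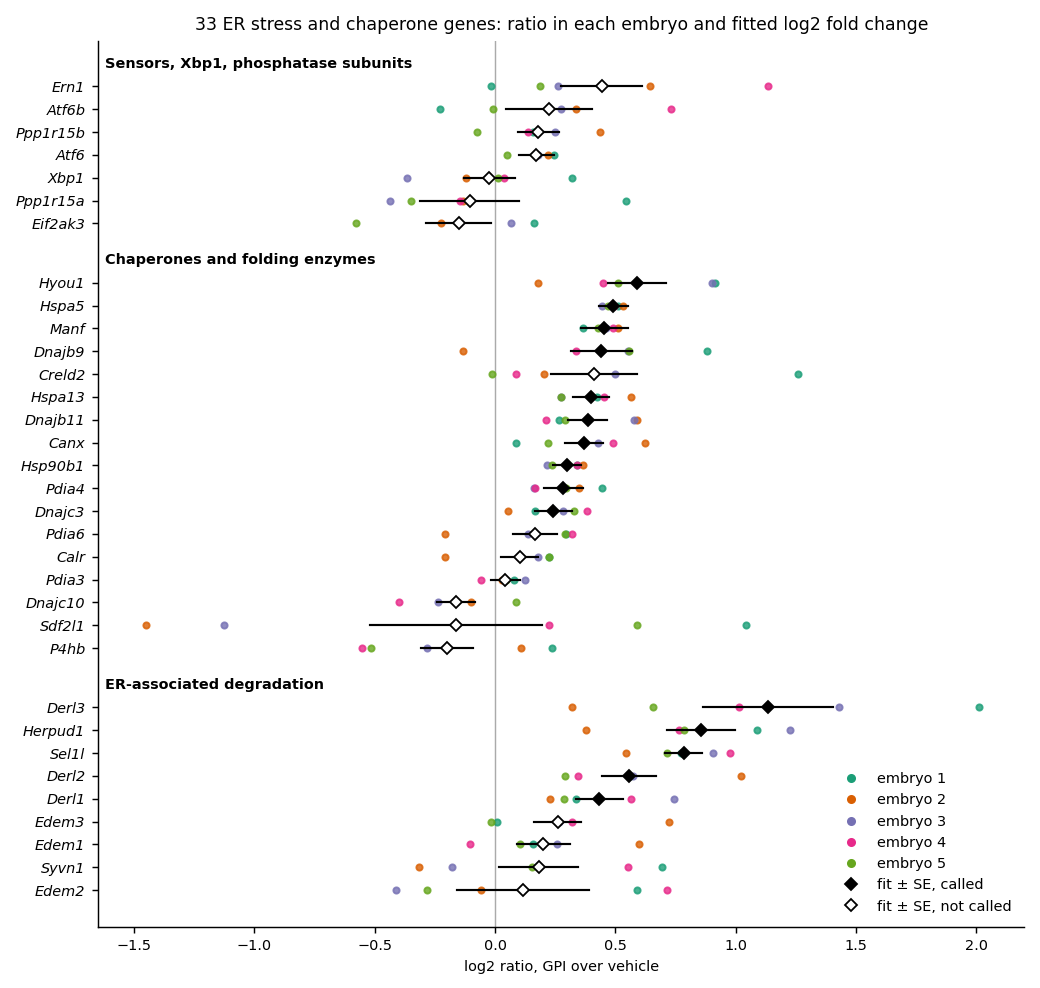
Log2 ratio of GPI over vehicle (horizontal axis) for each of the 33 genes in each of 5 embryos (coloured dots), with the fitted log2 fold change and its standard error (diamonds, filled where called at an FDR of 0.05). Filled diamonds lie among the chaperones and degradation genes, from 0.24 for Dnajc3 to 1.13 for Derl3, and the diamonds of the sensors, Xbp1 and the phosphatase subunits are open.

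As a description, the promoters of the 33 genes were searched for response elements of the pathway. RefSeq windows from 250 bases before to 50 bases after the start were given for 27 of the 33 genes, on build GRCm38.p6. Those of Atf6, Derl1, Hspa13, Hyou1, Manf and Ppp1r15b were not in the table. The ER stress response element (ERSE), known to be bound by ATF6 together with NF-Y, was searched on both strands as CCAAT, any 9 bases, then CCACG. It was found in windows of 9 of the 27 genes (Hspa5, Hsp90b1, Calr, Canx, Pdia6, Dnajc3, Creld2, Derl3 and Syvn1). Over all promoters given, 37 of 27025 genes held it, in 39 of all 32851 windows (0.119%). The related ERSE-II, ATTGG, any 1 base, then CCACG, was in Herpud1 and Dnajb11, beside 12 of all windows (0.0365%). The XBP1-type element TGACGTGG was in 0 of the 27 and in 0.676% of all windows. The cyclic AMP element TGACGTCA was in 1, Ppp1r15a, and in 1.79% of all windows. ERSE and ERSE-II share the letters CCACG, and the reverse complement of TGACGTGG begins with them, so matches of different elements can overlap. The 33 genes were listed for this pathway and include classical targets of it. Their shares of windows with these elements are therefore description, not support drawn from these data.

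The windows of 4 genes are shown because Hspa5 and Hsp90b1 are the classical targets and Herpud1 and Derl3 had the largest fold changes of the 33. Each runs 5′ to 3′ on the gene's strand, with the fixed letters of ERSE or ERSE-II in capitals.
Hspa5, chr2:34771840-34772139, plus strand: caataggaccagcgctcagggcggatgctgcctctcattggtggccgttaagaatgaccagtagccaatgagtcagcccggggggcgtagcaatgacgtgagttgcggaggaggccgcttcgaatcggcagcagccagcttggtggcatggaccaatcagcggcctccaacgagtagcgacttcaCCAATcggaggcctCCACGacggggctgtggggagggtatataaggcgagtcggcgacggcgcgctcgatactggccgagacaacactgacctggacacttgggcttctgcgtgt
Hsp90b1, chr10:86705395-86705694, minus strand: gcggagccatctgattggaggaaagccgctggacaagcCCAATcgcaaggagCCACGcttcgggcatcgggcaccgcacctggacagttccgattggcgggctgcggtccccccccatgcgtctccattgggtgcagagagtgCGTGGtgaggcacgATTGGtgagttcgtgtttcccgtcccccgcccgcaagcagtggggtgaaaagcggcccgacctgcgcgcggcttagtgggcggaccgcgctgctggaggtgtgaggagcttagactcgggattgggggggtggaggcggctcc
Herpud1, chr8:94386179-94386478, plus strand: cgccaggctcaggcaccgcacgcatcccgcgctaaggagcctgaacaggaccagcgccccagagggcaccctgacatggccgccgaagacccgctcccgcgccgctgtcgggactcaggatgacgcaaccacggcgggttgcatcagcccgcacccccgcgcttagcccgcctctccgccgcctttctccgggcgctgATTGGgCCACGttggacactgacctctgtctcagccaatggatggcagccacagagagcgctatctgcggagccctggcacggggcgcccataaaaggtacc
Derl3, chr10:75893148-75893447, plus strand: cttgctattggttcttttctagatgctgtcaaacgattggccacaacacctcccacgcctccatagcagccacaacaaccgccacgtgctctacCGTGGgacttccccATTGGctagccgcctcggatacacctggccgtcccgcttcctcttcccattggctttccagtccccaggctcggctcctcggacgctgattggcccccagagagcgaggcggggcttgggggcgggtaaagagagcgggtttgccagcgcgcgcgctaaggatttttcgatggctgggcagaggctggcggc
Hsp90b1 holds 2 ERSE matches in opposite orientation and Hspa5, Derl3 and Herpud1 hold 1 match each. The Hspa5 match begins 65 bases before the RefSeq start, the Herpud1 match 52 and the Derl3 match 156. The gene coordinates in the count table begin at the same base for Hspa5, Hsp90b1 and Derl3, and further downstream for Herpud1.

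Read on the strand that spells the element, the matches of the other genes differ between the fixed letters, and they are shown for that comparison.
Canx: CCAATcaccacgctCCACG
Dnajc3: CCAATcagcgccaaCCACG
Pdia6: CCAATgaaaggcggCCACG
Calr: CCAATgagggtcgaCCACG
Creld2: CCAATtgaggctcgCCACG
Syvn1: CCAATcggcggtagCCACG
Dnajb11: ATTGGcCCACG
The first 6 are ERSE matches and the last is ERSE-II, which in Dnajb11 lies after the start. Of the 11 genes with ERSE or ERSE-II, 7 were higher with GPI, and of the 16 with a window but neither element, 4 were (Sel1l, Derl2, Dnajb9 and Pdia4). Beside these stand 11.1% of all tested genes called higher, and the difference between genes with and without an element was not tested. Of the 12 tested genes outside the 33 with an ERSE in their window, 1 was higher (Ero1b) and 2 were lower (Hnrnpa3 and Spats2l), names that were chosen after their values were seen. Of the 6 such genes with an ERSE-II, 0 were higher and 0 lower. Over all tested genes, 11.1% were called higher and 11.9% lower, so these counts outside the 33 lie near that background. A match describes letters in a window and not binding.

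**Figure D2:**
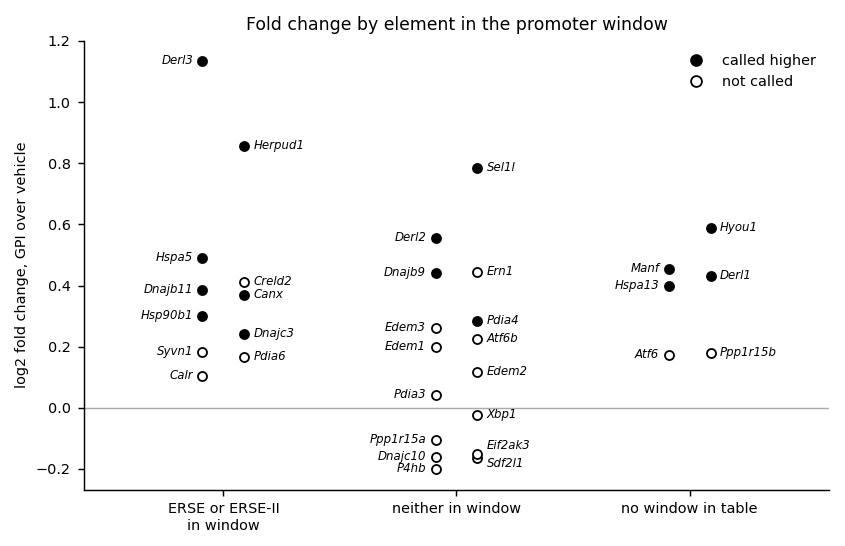
Log2 fold change (vertical axis) of the 33 genes, grouped by whether their promoter window holds ERSE or ERSE-II, holds neither, or was not in the table; filled circles were called higher. Called genes are in all 3 groups, 7 of 11, 4 of 16 and 4 of 6, beside 11.1% of all tested genes called higher. Sel1l and Derl2 were called with neither element in their window.

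Results are given by role, with values for embryos 1 to 5 in that order, and a lone value in parentheses after a gene or a setting is a log2 fold change. None of the 7 sensor, Xbp1 and phosphatase genes was called by edgeR, DESeq2 or limma-voom, and 3 of them (Ern1, Atf6 and Ppp1r15b) were higher at an unadjusted p under 0.05, a level reached upward by 17% of tested genes. Over all tested genes edgeR called 11.1% higher. The median log2 fold change of the 7 genes was 0.17. Ern1 (Entrez 78943, chr11:106397620-106487796 on mm10), the IRE1 gene, stood at 155, 115, 159.7, 113 and 198 normalized counts in vehicle testes and at 153, 180.0, 192, 249 and 226 in GPI testes. The groups overlapped, with embryo 1 nearly level and embryo 4 showing the widest gap (log2 fold change 0.44 ± 0.17 (SE), adjusted p = 0.0776, edgeR). Ern1 was called higher without embryo 1 (0.54) and with a trend on GC content and length removed (0.54), and its log2 fold change fell to 0.27, without a call, when embryo 4 was left out.

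Eif2ak3 (Entrez 13666, chr6:70844515-70905241), the PERK gene, had 187, 209, 206, 209 and 297 normalized counts in vehicle testes and 209, 178, 215, 188 and 198 in GPI testes. The vehicle testis of embryo 5 was far above all others, and the rest of both groups intermingled (log2 fold change -0.15 ± 0.13 (SE), adjusted p = 0.48, edgeR; -0.24 without embryo 1 and -0.04 without embryo 5). Atf6 (Entrez 226641, chr1:170704457-170867771) was at 1168, 1209, 1282, 1169 and 1248 normalized counts in vehicle testes and at 1386, 1407, 1449, 1314 and 1291 in GPI testes. Its groups did not overlap, but the gap was small and the test was not passed (log2 fold change 0.17 ± 0.07 (SE), adjusted p = 0.107, edgeR). With the GC and length trend removed Atf6 was called higher (0.21). Atf6b, its paralog, had a log2 fold change of 0.22 ± 0.18, adjusted p = 0.42 (0.09 without embryo 4).

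Xbp1 (Entrez 22433, chr11:5520641-5525993), the gene of the factor made from the mRNA that IRE1 splices, was at 466, 555, 537, 501 and 519.6 normalized counts in vehicle testes and at 582, 511, 416, 513 and 524 in GPI testes. GPI values lay on both sides of the vehicle values, highest in embryo 1 and lowest in embryo 3 (log2 fold change -0.02 ± 0.11 (SE), adjusted p = 0.906, edgeR). Counts per gene do not separate spliced from unspliced Xbp1 mRNA, so IRE1 activity was not measured here. Among the phosphatase subunits, the stress-induced Ppp1r15a (GADD34) had a log2 fold change of -0.11 ± 0.21, adjusted p = 0.773 and the constitutive Ppp1r15b 0.18 ± 0.08, adjusted p = 0.147. Without embryo 1 the log2 fold change of Ppp1r15a was -0.29, without a call. It was -0.04 without embryo 3, without embryo 5, and with the GC and length trend removed. Ppp1r15b was called higher with the GC and length trend removed (0.25), and was at 0.12 without embryo 2, not called. Ppp1r15a overlaps Tulp2 on the other strand, and strand was not used in counting, so strand does not tell apart reads from the part the 2 genes share.

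**Figure D3:**
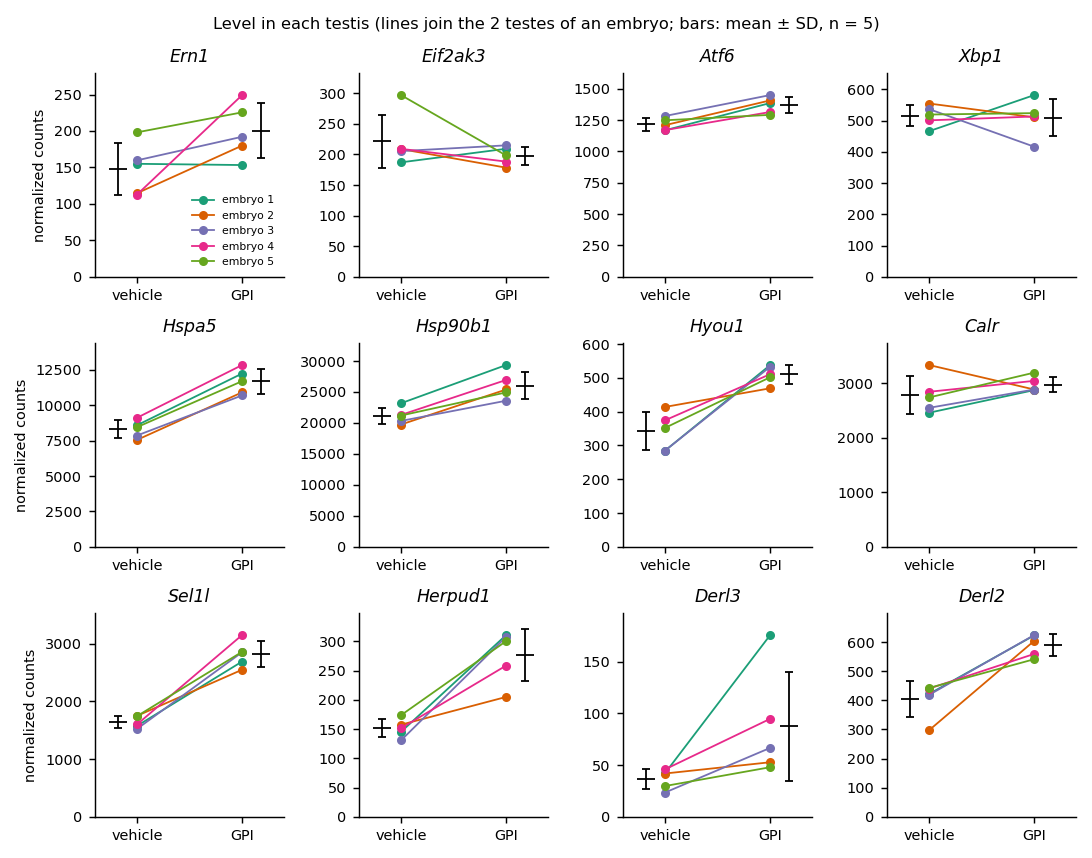
Normalized counts (vertical axes, from 0) of 12 of the 33 genes in vehicle and GPI testes; lines join the testes of an embryo and bars give mean ± SD (n = 5). Hspa5, Hsp90b1, Sel1l, Herpud1, Derl2, Derl3, Atf6 and Hyou1 were higher in all 5 GPI testes than in any vehicle testis, and Ern1, Eif2ak3, Xbp1 and Calr overlapped.

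Chaperones and folding enzymes were higher in 10 of 17 genes, beside 11.1% of all tested genes, with a median log2 fold change of 0.30. Their sum was 62285, 54909, 57310.5, 60911 and 58535 normalized counts in vehicle testes and 76484, 68014, 67138, 72474 and 67564 in GPI testes, without overlap. Hspa5 (Entrez 14828, chr2:34772090-34776529) encodes BiP, the HSP70 chaperone of the ER that also holds the sensors inactive. It stood at 8585, 7551, 7861, 9114 and 8451 normalized counts in vehicle testes and at 12247, 10919.6, 10700.2, 12847 and 11707 in GPI testes. All GPI values were above all vehicle values, and the 5 log2 ratios lay close together, from 0.44 to 0.53. The fitted difference was a fold of 1.41 (log2 fold change 0.49 ± 0.06 (SE), adjusted p = 4.14e-05, edgeR). Hspa5 carries the ERSE shown above.

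Hsp90b1 (Entrez 22027, chr10:86690841-86705444), which encodes the HSP90 chaperone GRP94, had 23174, 19740.4, 20326, 21289.7 and 21193 normalized counts in vehicle testes and 29356, 25405, 23590.4, 26946 and 24938 in GPI testes. The lowest GPI value, in embryo 3, was just above the highest vehicle value, in embryo 1 (log2 fold change 0.30 ± 0.06 (SE), adjusted p = 0.00242, edgeR). Hyou1 (Entrez 12282, chr9:44379490-44392369), a large HSP70 relative that exchanges nucleotide on BiP, was at 285, 414, 285, 374 and 352 in vehicle testes and 538, 469, 533, 511 and 502 in GPI testes. The gap was widest in embryos 1 and 3 and narrowest in embryo 2, without overlap (log2 fold change 0.59 ± 0.12 (SE), adjusted p = 0.00258, edgeR). Hspa13 (Entrez 110920, chr16:75755190-75766818), another HSP70-type protein of microsomes, was at 1195, 1019, 1223, 1231 and 1151 in vehicle testes and at 1602, 1510.4, 1479, 1688 and 1394 in GPI testes. All 5 GPI testes were above all vehicle testes (log2 fold change 0.40 ± 0.08 (SE), adjusted p = 0.00154, edgeR).

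J proteins present clients to BiP or stimulate its ATPase. Dnajb11 (ERdj3, Entrez 67838, chr16:22857845-22879634) had 1278, 1150.3, 1288, 1441 and 1445 normalized counts in vehicle testes and 1534, 1732, 1919.8, 1669 and 1766 in GPI testes. The groups did not overlap (log2 fold change 0.39 ± 0.08 (SE), adjusted p = 0.00331, edgeR). Dnajb11 overlaps Gm30505, a gene with a mean of 6.3 normalized counts, on the other strand. Dnajb9 (ERdj4, Entrez 27362, chr12:44205897-44210068), a BiP partner that restrains IRE1, had 467, 536, 413, 448 and 395 in vehicle testes and 862, 488, 607, 566 and 583 in GPI testes. Embryo 1 had by far the highest GPI value, embryo 2 went the other way, and the groups overlapped (log2 fold change 0.44 ± 0.13 (SE), adjusted p = 0.0215, edgeR). Dnajb9 was not called without embryo 1 (0.31), 3 (0.40) or 5 (0.41). Dnajc3 (p58IPK) was higher at 0.24 ± 0.08, adjusted p = 0.0396, but not without embryo 1 (0.24), 3 (0.21), 4 (0.21) or 5 (0.22), nor with total-count scaling (0.19) or no filter on low counts (0.24). Dnajc10 (ERdj5), a disulfide reductase, was not called (-0.16, adjusted p = 0.174; -0.10 without embryo 4).

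The lectin chaperones calnexin and calreticulin differed in call. Canx, the membrane-bound form, was at 7548, 5441, 6516, 6804 and 7037 normalized counts in vehicle testes and at 8019, 8393, 8776, 9569.9 and 8191 in GPI testes. Embryo 1 had the highest vehicle value and the smallest gap, and the groups did not overlap (log2 fold change 0.37 ± 0.08 (SE), adjusted p = 0.00387, edgeR). Calr (Entrez 12317, chr8:84842088-84846931), the soluble form, was at 2459, 3335, 2549, 2844 and 2739.7 normalized counts in vehicle testes and at 2875, 2885, 2886, 3045 and 3196 in GPI testes. The vehicle testis of embryo 2 was the highest of all 10, the other 4 embryos were higher with GPI, and the groups overlapped (log2 fold change 0.10 ± 0.08 (SE), adjusted p = 0.39, edgeR). Whether the changes of Canx and Calr differ from each other was not tested. The log2 fold change of Calr was 0.18 without embryo 2 and 0.06 without embryo 1, and neither passed.

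Disulfide isomerases were mostly not called. Pdia4 was higher (log2 fold change 0.28 ± 0.08 (SE), adjusted p = 0.0199, edgeR), with its highest value in the GPI testis of embryo 1, and was not called without embryo 1 (0.23), 3 (0.30) or 5 (0.28), nor with total-count scaling (0.23). Pdia6 (0.17), Pdia3 (0.04) and P4hb (-0.20) did not pass, Pdia6 was called higher without embryo 2 (0.26), and Pdia3 took the other sign with total-count scaling (-0.0069). In P4hb, whose product is also a subunit of collagen prolyl hydroxylase, the GPI testis of embryo 1 was the highest of all 10 at 6862 normalized counts, and without embryo 1 the gene was called lower (-0.33), whereas without embryo 4 (-0.11) or 5 (-0.12) it was nearer 0 and not called. Manf, a secreted BiP cofactor, was higher (log2 fold change 0.45 ± 0.10 (SE), adjusted p = 0.00414, edgeR). Creld2 (0.41, adjusted p = 0.12) and Sdf2l1 (-0.16, adjusted p = 0.801) were not called. Creld2 reached 366 normalized counts in the GPI testis of embryo 1 and 159 to 188 in the other GPI testes, beside 133 to 163 with vehicle, and without embryo 1 its log2 fold change was 0.18 (adjusted p = 0.488). That of Sdf2l1 was -0.47 without embryo 1 and 0.18 without embryo 2.

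Genes of ER-associated degradation were higher in 5 of 9, beside 11.1% of all tested genes, with a median log2 fold change of 0.43. Their sum was 5669, 4897, 5615, 5623 and 5694 normalized counts in vehicle testes and 7633, 7326, 8232, 8303 and 7184 in GPI testes, without overlap. Sel1l (Entrez 20338, chr12:91806043-91849157) encodes the adaptor of the ubiquitin ligase HRD1. It was at 1572, 1746, 1519.8, 1598 and 1741 normalized counts in vehicle testes and at 2688, 2546, 2849.8, 3148 and 2857 in GPI testes. Every GPI testis was above every vehicle testis by a wide margin, and of the 33 genes Sel1l had the smallest p (log2 fold change 0.78 ± 0.08 (SE), adjusted p = 6.34e-06, edgeR). Syvn1, the gene of HRD1 itself, was not called (0.18, adjusted p = 0.488; 0.03 without embryo 1 and 0.31 without embryo 2); it overlaps Mrpl49 on the other strand. Whether Sel1l and Syvn1 differ from each other was not tested.

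Herpud1 (Entrez 64209, chr8:94386500-94395358), whose product assembles the HRD1 complex, stood at 145, 158, 131, 151 and 174 normalized counts in vehicle testes and at 311, 205, 308, 259 and 301 in GPI testes. Embryo 2 had the lowest GPI value, which was still above the highest vehicle value (log2 fold change 0.86 ± 0.14 (SE), adjusted p = 0.000522, edgeR). Derlins are rhomboid-like proteins of the retrotranslocation channel. Derl2 (Entrez 116891, chr11:71007440-71019841) had 422, 297, 419, 440.3 and 443 in vehicle testes and 623, 605, 625, 559.7 and 542 in GPI testes. The vehicle testis of embryo 2 was far below the other 4, and the groups did not overlap (log2 fold change 0.56 ± 0.11 (SE), adjusted p = 0.00245, edgeR; 0.44 without embryo 2). Derl2 overlaps Mis12 on the other strand, a gene with a mean of 780.3 normalized counts, and strand does not tell apart reads from the part they share.

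Derl3 (Entrez 70377, chr10:75893398-75895941) had 42.1, 41.8, 23.4, 45.8 and 29.7 normalized counts in vehicle testes and 176, 52.7, 66.6, 94.7 and 47.9 in GPI testes. It was the least abundant called gene and had the largest fold change of the 33, with no overlap between groups (log2 fold change 1.13 ± 0.27 (SE), adjusted p = 0.00718, edgeR). Its GPI testis of embryo 1 stood out, and without embryo 1 the log2 fold change was 0.87 and still passed. Derl1 was higher as well (log2 fold change 0.43 ± 0.10 (SE), adjusted p = 0.00535, edgeR), except without embryo 3 (0.34), where it was not called. The mannosidase-like genes Edem1 (0.20), Edem2 (0.12) and Edem3 (0.26, adjusted p = 0.0739), which mark glycoproteins for degradation, were not called. Edem3 passed without embryo 1 (0.31) or 5 (0.33), with no filter on low counts (0.26), and with the GC and length trend removed (0.28), but without embryo 2 it fell to 0.15 (adjusted p = 0.227). Edem1 was at 0.10 without embryo 2. Edem2 turned negative without embryo 1 (-0.03) or 4 (-0.04).

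Levels can be compared between genes only per length of transcript, which was known for all 33. In vehicle testes Hsp90b1 led with a mean of 6563 normalized counts per kb, followed by Pdia3 at 2311, Hspa5 at 2264, P4hb at 1813, Canx at 1558 and Calr at 1275. With GPI the order at the top was Hsp90b1 at 8084, Hspa5 at 3182, Pdia3 at 2379, Canx at 2006, P4hb at 1612 and Calr at 1363. Hspa5 thus stood above Pdia3, and Canx above P4hb, in the mean of the GPI group only. The lowest of the 33 in vehicle testes were Edem2 at 18.6, Ern1 at 21.3, Ppp1r15a at 27.1 and Derl3 at 27.7 per kb.

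Other genes of the ER pathway were followed in 7 further lists, of which 78 genes were tested. Of these, 16 were higher and 4 lower, with a median log2 fold change of 0.13. The shares over all tested genes, 11.1% higher and 11.9% lower, are the background for each list that follows. Values in parentheses are log2 fold changes ± SE with the adjusted p of the same edgeR fit. Calls were most frequent in the PERK and ATF4 arm, with 7 of 12 higher and 1 lower. This list thus held 7 of the 16 higher calls, and the other lists held 0 to 3 each. Atf4, the transcription factor, was higher (0.52 ± 0.08, adjusted p = 0.000442), as were its target Asns for asparagine synthetase (1.15 ± 0.11, adjusted p = 3.44e-06), Atf5 (1.30 ± 0.17, adjusted p = 6.63e-05) and Nupr1 (2.22 ± 0.25, adjusted p = 2.53e-05). Ddit3 (CHOP) was not called (0.23 ± 0.26, adjusted p = 0.585). Trib3, Sesn2 and Cebpg were higher and Ddit4 was lower (-0.59). As background, translation of ATF4 is also favoured by eIF2alpha kinases other than PERK. Atf5 overlaps Nup62 and Ddit3 overlaps Mars1 on the other strand.

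In the remaining degradation machinery 1 of 15 genes was higher, Selenos (0.54 ± 0.12, adjusted p = 0.00348), with log2 fold changes of 0.05 for Os9 and 0.04 for Erlec1, lectins that bring glycoproteins to HRD1. The higher count of this list was 2 without embryo 1 and 3 with the GC and length trend removed. Os9 and Erlec1 were slightly negative with total-count scaling and without embryo 1. Among 10 other genes of oxidative folding and its partners, Ero1b (0.75 ± 0.15, adjusted p = 0.00262) and Erp44 (0.37 ± 0.09, adjusted p = 0.0056) were higher, and Prdx4 (-0.50 ± 0.10, adjusted p = 0.00195) and Ero1a (-0.97 ± 0.26, adjusted p = 0.014) were lower. Ero1a, the hypoxia-inducible oxidase of disulfide isomerases, was at 3165, 2458, 1926, 1756 and 1839 normalized counts in vehicle testes and at 5288, 823, 807, 771 and 659 in GPI testes. The GPI testis of embryo 1 was the highest of all 10 and the other 4 GPI testes were below all vehicle testes. The log2 fold change of Ero1a was -1.39 without embryo 1, and the gene was not called without embryo 2 (-0.80), 3 (-0.91), 4 (-0.91) or 5 (-0.83), with DESeq2 (-0.99) or with no replicate block (-0.42).

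None of the 5 tested genes of glucose trimming and reglucosylation passed in edgeR, DESeq2 or limma-voom, and 0 had an unadjusted p under 0.05. Uggt1, the folding sensor of that cycle, had a log2 fold change of 0.14 and Uggt2 of -0.04, which turned positive without embryo 1 or 5. Clgn, a germ cell calnexin, was set aside by the filter. In the oligosaccharyltransferase, 2 of 9 subunits were higher, Rpn1 (0.51 ± 0.08, adjusted p = 0.000377) and Stt3a (0.25 ± 0.07, adjusted p = 0.0217), while Rpn2 was not called (0.13). Stt3a lost its call without embryo 1 (0.19), 3 (0.22) or 4 (0.26) and with total-count scaling (0.20). In the translocon and signal peptidase list, 3 of 15 were higher, Spcs2 (0.57 ± 0.08, adjusted p = 0.000198), Sec63 (0.25 ± 0.07, adjusted p = 0.014) and Ssr2 (0.34 ± 0.11, adjusted p = 0.0313), while the channel subunits Sec61a1 (-0.01) and Sec61b (0.11) were not called. With the GC and length trend removed, 5 of this list were higher. Sec63 was not called without embryo 4 (0.24) or 5 (0.22). Ssr2 was not called without embryo 1 (0.29), 3 (0.31), 4 (0.35) or 5 (0.36), with DESeq2 (0.33), with total-count scaling (0.29) or with no filter on low counts (0.34).

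Collagen folding is a major ER load of stromal cells. Of its 12 genes, Creb3l1 was higher (0.30 ± 0.09, adjusted p = 0.0232) and P4ha1 lower (-0.86 ± 0.17, adjusted p = 0.00246), and the collagen chaperone Serpinh1 was not called (-0.02). Creb3l1 was not called without embryo 1 (0.22), 3 (0.28), 4 (0.31) or 5 (0.26), or with total-count scaling (0.25). P4ha1 reached 1308 normalized counts in the GPI testis of embryo 1, and without that embryo its log2 fold change was -1.12 and 2 genes of the list were lower. Without the replicate block neither gene was called (Creb3l1 0.29, P4ha1 -0.70).

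Chaperones outside the ER were examined for comparison. Of 11 cytosolic heat shock genes, 4 were higher and 1 was lower, with a median log2 fold change of 0.04. Hspa1a (1.22 ± 0.19, adjusted p = 0.000343) and Hspa1b (1.09 ± 0.35, adjusted p = 0.0369) are near-identical copies, so how reads were split between them is uncertain, and Hspa1b was not called without embryo 1 (1.04), 3 (1.19), 4 (0.84) or 5 (1.08). Hsph1 (0.38 ± 0.10, adjusted p = 0.0113) and Hspb1 (0.49 ± 0.13, adjusted p = 0.014) were higher and Bag3 was lower (-0.34). Hsph1 was not called without embryo 3 (0.36), nor Hspb1 without 3 (0.42) or 4 (0.40). With no replicate block, with the GC and length trend removed, or without embryo 2, 3 or 4, 0 cytosolic heat shock genes were lower, so Bag3 was not called there. The lower count was 3 with total-count scaling and 2 each with DESeq2, limma-voom and no filter on low counts. Of 7 mitochondrial chaperones and proteases 3 were higher, with a median of 0.29, namely Hspd1 (0.45 ± 0.08, adjusted p = 0.000565), its partner Hspe1 (0.51 ± 0.08, adjusted p = 0.00026) and Hspa9 (0.52 ± 0.09, adjusted p = 0.000522). Increases that passed the test were thus also present among chaperones of other compartments.

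**Figure D4:**
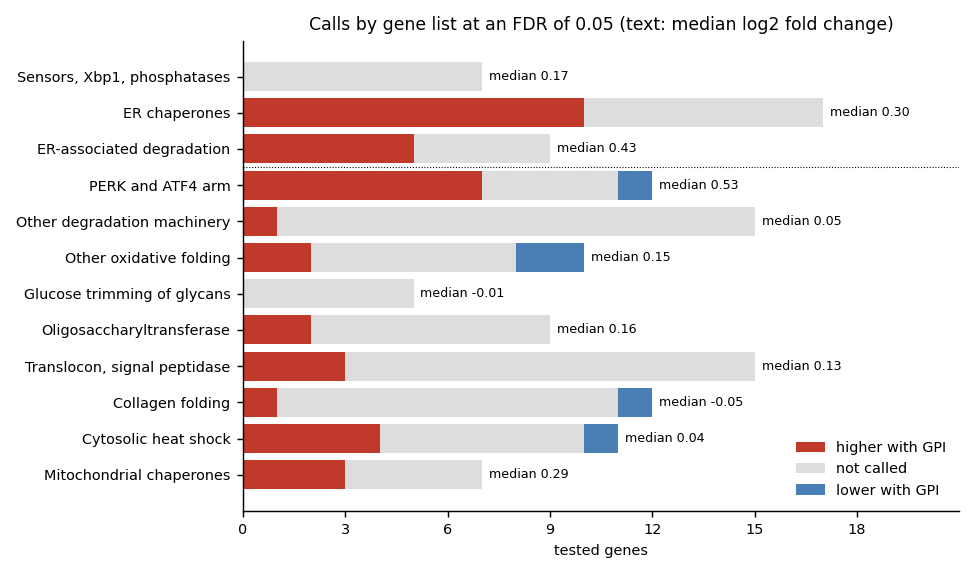
Number of tested genes per list (horizontal axis, from 0) called higher, not called and called lower with GPI, with the median log2 fold change of each list beside its bar; the 33 genes are above the dotted line. Higher calls number 10 of 17 for ER chaperones, 5 of 9 for ER-associated degradation, 7 of 12 for the PERK and ATF4 arm and 1 of 15 for the other degradation machinery. Over all tested genes the share is 11.1%.

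Cell type markers moved strongly with treatment, and their values stand beside the ER genes here. In bulk RNA, fewer cells of a type and less RNA per cell cannot be told apart. Testis identity was visible in both groups, with Sox9 at means of 1231 ± 214 and 1848 ± 234 normalized counts (SD, n = 5). Sertoli cell markers were higher in 6 of 8 genes, among them Sox9 (0.59 ± 0.09, adjusted p = 0.000408) and Aard (0.54 ± 0.12, adjusted p = 0.00614), the one with the most counts, while Amh was not called (0.08 ± 0.22, adjusted p = 0.843). Aard was not called without embryo 3 (0.43) or with no replicate block (0.62). The 8 Sertoli markers summed to 3302, 4871, 3779.9, 4926 and 5212 normalized counts in vehicle testes and to 3878, 6828, 6953, 9085 and 6825 in GPI testes. These sums overlapped, with the GPI testis of embryo 1 within the vehicle range.

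Fetal Leydig cell markers were higher in all 7 tested genes, with Cyp11a1 at 2.90 ± 0.27, adjusted p = 4.56e-06, Cyp17a1 at 3.90 ± 0.29, adjusted p = 5.91e-07 and Hsd3b1, the one with the most counts, at 1.75 ± 0.20, adjusted p = 2.71e-05. Their sums were 1509, 3237, 4466, 2319.8 and 5959 in vehicle testes and 10711, 11276, 17249.9, 19630.1 and 14489.7 in GPI testes. Even the lowest GPI sum was above the highest vehicle sum. Vehicle testes themselves differed in this sum, from 1509 in embryo 1 to 5959 in embryo 5. Insl3 was set aside by the filter.

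Endothelial markers were lower in 8 of 8 genes, including Pecam1 (-4.16 ± 0.15, adjusted p = 1.07e-09) and Cdh5 (-3.63 ± 0.12, adjusted p = 3.76e-10), the one with the most counts. Their sums were 7697, 7933, 7348, 8478 and 7529 in vehicle testes and 856, 1006, 696, 556 and 710.4 in GPI testes. Germ cell markers were lower in 6 of 7 tested genes, including Ddx4 (-2.72 ± 0.45, adjusted p = 0.000515) and Dazl (-4.62 ± 0.34, adjusted p = 5.6e-07), the one with the most counts. Their sums were 1044, 2106, 1332, 1801 and 688 in vehicle testes and 169, 128, 56.1, 58.9 and 157 in GPI testes. In neither list did the groups overlap.

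Erythroid markers were lower in 7 of 7 tested genes, including Hba-a1 (-1.59 ± 0.34, adjusted p = 0.00333), Hbb-bt (-3.84 ± 0.31, adjusted p = 1.21e-06) and Hbb-y (-0.98 ± 0.23, adjusted p = 0.0075), the one with the most counts. Globin genes have near-identical copies, so their single values are uncertain. Their sums were 1793, 2341, 4697, 4474 and 3767 in vehicle testes and 1388, 833, 784, 847 and 1957 in GPI testes. The GPI testis of embryo 5 and the vehicle testis of embryo 1 overlapped in this sum. Macrophage markers were lower in 6 of 7 tested genes, with Cd68, the one with the most counts, at -0.76 ± 0.19, adjusted p = 0.00933 (-0.69 and not called with no replicate block), Csf1r at -2.22 ± 0.21, adjusted p = 5.35e-06 and Adgre1 not called at -0.26 ± 0.25, adjusted p = 0.512. Their sums were 818, 557, 666, 595 and 515 in vehicle testes and 373, 332, 291, 190.4 and 205 in GPI testes, without overlap.

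Interstitial and stromal markers went both ways, with 2 of 8 higher and 4 lower, among them Pdgfra (0.33 ± 0.07, adjusted p = 0.0022) and Col1a1 (-0.48 ± 0.08, adjusted p = 0.000387), the one with the most counts, with Nr2f2 not called (-0.18 ± 0.07, adjusted p = 0.104) except under total-count scaling (-0.23). Nr2f2 overlaps B130024G19Rik on the other strand. Their sums overlapped between groups, at 32837, 35641, 31820.5, 25873 and 29242 in vehicle testes and 27805, 30675, 26764, 22936 and 31061 in GPI testes. Markers of mesonephros and other epithelium were lower in 3 of 5 tested genes. These were Emx2 (-0.73 ± 0.13, adjusted p = 0.000774), the one with the most counts, Epcam (-2.19) and Cdh1 (-2.65). Pax8 (-0.28 ± 0.27, adjusted p = 0.526) and Krt8 (-0.30, adjusted p = 0.711) were not called, and Pax2, Lhx1 and Cdh16 were set aside by the filter. Whether the lower counts come from mesonephric cells was not tested. The sums of this list overlapped, at 2186, 1305, 1654, 1258 and 956 in vehicle testes and 872, 1074, 659.9, 607 and 851 in GPI testes. No marker of these 8 lists was at 0 in all 5 GPI testes. The part that these marker changes had in the levels of the ER genes was not tested.

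**Figure D5:**
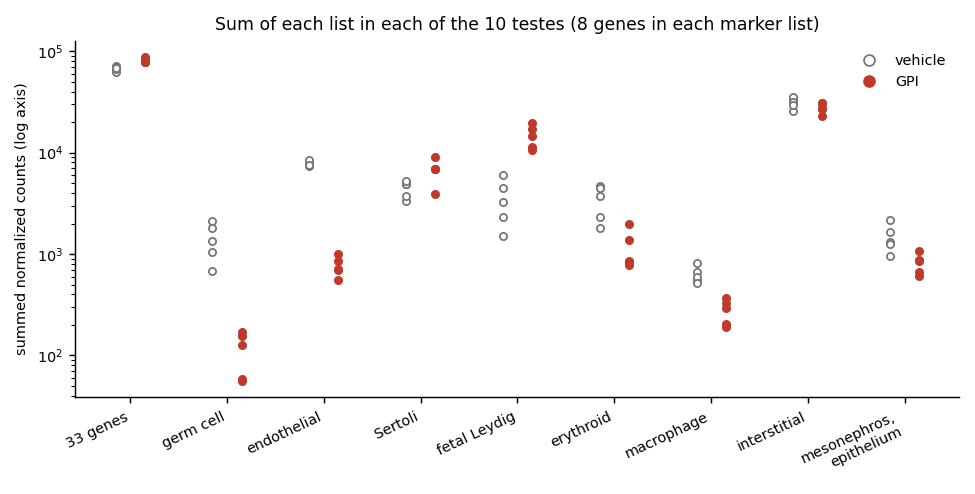
Summed normalized counts (vertical log axis) of the 33 ER genes and of 8 lists of 8 cell type markers in each vehicle (open) and GPI (filled) testis. The sum of the 33 genes was at most 71263 in a vehicle testis and at least 78263 in a GPI testis, a small shift beside those of the endothelial, germ cell and Leydig cell lists.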

How the data were processed

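The authors aligned read pairs to mm10 with STAR and deposited raw counts per gene, made with featureCounts (Subread 1.5.0-p1) without regard to strand (0 further columns held per-sample values). A filter on low counts (filterByExpr of edgeR, at least 10 counts in enough libraries and 15 in total) kept 13941 genes and removed 10529. Calls came from edgeR 4.0.16 (quasi-likelihood test, TMM scaling, embryo and treatment in the design, Benjamini-Hochberg adjustment over all tested genes, FDR 0.05), tested on simulated data first. A standard error is the absolute log2 fold change over the square root of F. Normalized counts are counts divided by the TMM-scaled library size and multiplied by the mean of these sizes, and ratios per embryo used a prior count of 2. Lengths per kb are those of the longest GENCODE M21 transcript. Coordinates are those of mm10 (GRCm38).

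The pairing comes from the labels, which give both gonads of an embryo 1 number. Deviations from the group mean correlated at 0.06 on average within embryos and at -0.0147 between them. Only in embryos 1 and 4 did the vehicle testis correlate best with the GPI testis of its own embryo. Within embryo 2 the correlation was -0.0398. Within groups no library was a copy of another (chi-square over degrees of freedom 6.42 to 27.8). Alternatives were DESeq2 1.42.0, limma-voom 3.58.1, a fit with no replicate block, size factors of DESeq2 in edgeR, scaling by total counts, no low-count filter, a stricter one (10 counts in each library), removal of a loess trend on GC content and length, and each embryo left out.

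Values per testis are given for the 8 called members with the smallest p and for 10 set members. Of each other list, the first 2 genes and up to 3 called genes with the smallest p are named, and of each marker list the gene with the most counts and the first 2; a few further genes were named after their values were seen. Members and lists were chosen with earlier results of these data known. Read pairs of a PCR library without molecular barcodes do not each stand for a molecule, and errors therefore come from the differences among embryos.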

Additional observations from a re-analysis of the deposited data

Results flagged for a closer look

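Groups of 5 testes were examined for the 33 ER genes and for most genes named from the pathway and marker lists. Trib3, Sesn2, Cebpg, Ddit4, Bag3, Clgn, Insl3, Epcam, Cdh1, Krt8, Lhx1 and Cdh16 were not among them. Of these 174 groups, 17 held a testis whose gap to the nearest value took an unusually large part of the group's range. Chance gives about 1 in 20 such groups. Of the 17, 8 were in the 33 ER genes, out of 66 groups, and 6 were in the GPI testis of embryo 1.

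In the GPI testis of embryo 1, the highest of its group, normalized counts were 1202 for Pdia4 (next 988), 366 for Creld2 (next 188) and 532 for Edem1 (next 454). In the same testis they were 98.5 for Nupr1 (next 82.1), 5288 for Ero1a (next 823) and 1308 for P4ha1 (next 523). The cause was not tested.

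Among the 33 genes in other testes, Eif2ak3 was highest in the vehicle testis of embryo 5 at 297 (next 209) and Derl1 in that of embryo 1 at 589 (next 510.5). Derl2 was lowest in the vehicle testis of embryo 2 at 297 (next 419). Dnajc10 was lowest in the GPI testis of embryo 4 at 1413 (next 1635) and Pdia3 in that of embryo 5 at 6141 (next 6662).

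In the other lists, the vehicle testis of embryo 5 was the highest for Atf4 at 1509 and Uggt1 at 1187, and the lowest for Sec61b at 91.4 and Emx2 at 791. The GPI testis of embryo 3 was the highest for Uggt2 at 1015, and that of embryo 2 for Pax2 at 29.2.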

How the results depend on the processing

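Of the 15 genes called higher, 11 were called under each of 13 alternatives, and the other 4 were Dnajb9, Dnajc3, Pdia4 and Derl1. The count was 13 with total-count scaling, 19 with the GC and length trend removed, and 15 under DESeq2, limma-voom, no replicate block, size factors, no filter (Edem3 in place of Dnajc3) and the stricter filter. Higher calls over the table moved the same way, from 1544 to 1244 with total-count scaling and to 1903 with the trend removed. Lower calls moved from 1654 to 1968 and 1467. The shares of 11.1% and 11.9% therefore belong to the reported fit and not to these settings. With no replicate block, which ignores the pairing by embryo, 3108 genes of the table were called in place of 3198, and the same 15 of the 33 were higher. Without the block, 2 of the 78 other pathway genes were lower in place of 4, Ero1a and P4ha1 being lost. Leaving out each embryo in turn gave 11 to 16 members higher, 0 to 1 lower, and 969 to 1430 higher genes in the table in place of 1544 (969 without embryo 3, 1024 without embryo 4). These fits had fewer embryos. The median log2 fold change of the 33 genes ran from 0.21 to 0.29 over the other settings and 0.24 to 0.29 with an embryo left out. Of 429 values of single members under the alternatives, 397 kept direction and side of the threshold, 14 lost and 10 gained a call, and 8 changed sign.

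Sign changes were all in genes without a call, and the cause was not tested. With total-count scaling they were Pdia3 (-0.0069), Os9 (-0.001) and Erlec1 (-0.0062), and with the GC and length trend removed Xbp1 (0.0108), Sec61a1 (0.0511) and Serpinh1 (0.049). With an embryo left out, log2 fold changes that took both signs ran from -0.1255 to 0.044 for Xbp1, -0.4743 to 0.182 for Sdf2l1, -0.0396 to 0.2363 for Edem2, -0.0052 to 0.4895 for Ddit3, -0.0561 to 0.1273 for Os9, -0.0001 to 0.083 for Erlec1, -0.1093 to 0.0318 for Uggt2, -0.0672 to 0.0143 for Sec61a1, -0.0103 to 0.1881 for Sec61b, -0.0931 to 0.039 for Serpinh1 and -0.1213 to 0.2943 for Amh. The standard errors of Edem2 and Sdf2l1, 0.27 and 0.36, exceed the size of their log2 fold changes.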
